A study of Homo sapiens with 6 samples.

Results

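Glucose is taken up by membrane carriers, broken down to pyruvate and lactate in glycolysis, diverted into the pentose phosphate pathway, or oxidised as pyruvate in the citrate cycle, and the 48 genes described here encode the enzymes and carriers of these steps. They were given by name as genes of these pathways, a list drawn up with earlier results of these data known. Of the 48, 44 were tested, among 14269 genes in all. SLC2A3, a high-affinity glucose carrier of neurons, lay below the limit on dim signals. The lactate carriers SLC16A1 and SLC16A3 and the citrate cycle enzyme fumarase (FH) had no probe set that names them alone and were not analysed here.

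The samples are cultures of LNCaP, an established line from a lymph node metastasis of human prostate cancer whose androgen receptor is mutated but still responds to androgen. Cells of both groups were kept in RPMI without phenol red and with a charcoal/dextran supplement, a treatment used to strip steroids from serum. After 3 days, 3 cultures received 100 nM dihydrotestosterone (DHT), a potent natural androgen, for 48 hours, and the other 3 served as controls. Whether the controls received a vehicle was not stated. Each culture gave total RNA for 1 Affymetrix array, and its values are MAS5 signals, a brightness in arbitrary units. Within a group the arrays are labelled as biological replicates, but how the cultures were set up is unknown, so p-values measure the spread between these cultures of a single line.

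Glycolysis yields ATP and NADH in the cytosol. The pentose phosphate pathway makes NADPH and ribose from an early intermediate, and the citrate cycle oxidises acetyl-CoA in mitochondria. Healthy prostate secretory cells accumulate and secrete citrate because zinc restrains mitochondrial aconitase, a trait that prostate cancer cells largely lose.

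All arrays share a trimmed mean of 100.03 as deposited, so a fold change is measured against the average signal. In such bulk samples fewer cells of a type and less RNA per cell cannot be told apart. The correlation between arrays was 0.973 to 0.978 within a group and 0.958 to 0.966 between groups, across probe sets. Of 9 luminal prostate markers 7 were tested, of which KLK2, KLK3 and TMPRSS2 rose and HOXB13 and KRT8 fell. The summed signal of the 7 was 7367 to 7932 in controls and 18158 to 19052 with DHT. Within that sum the mean of KLK3 was 2186 in controls and 8985 with DHT, that of KLK2 109 and 2082, and that of TMPRSS2 254 and 2251. Of 5 basal markers 4 had a probe set and 0 passed the limit on dim signals, with summed signals of 9.44 to 26.7 in controls and 26.8 to 33.5 with DHT. The sums were 283 to 289 in controls and 191 to 273 with DHT for 6 fibroblast markers, of which COL1A1 fell, 51.2 to 95.1 in controls and 49.2 to 62.3 with DHT for 4 immune markers, and 87.2 to 119.7 in controls and 86.3 to 128 with DHT for 4 neuroendocrine markers.

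Measures of RNA and labelling also moved with the groups. In the ACTB control probe sets, signal at the 3' end over that at the 5' end was 1.37 ± 0.0479 in controls and 1.77 ± 0.0668 with DHT (SD, n = 3 each). For GAPDH it was 0.904 ± 0.0437 and 1.06 ± 0.0491. Neither overlapped between the groups (two-sided exact permutation p = 0.1 each, the smallest that 3 against 3 arrays allow), and their part in the results was not tested. The mean log2 signal of 18 hybridisation spike probe sets was 9.59 ± 0.11 in controls and 10.14 ± 0.14 with DHT. Relative to these spikes every log2 fold change would be lower by 0.55, and the median over all genes would be -0.53 in place of 0.021. Whether the spikes track the amount of RNA in the cells was not tested.

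Of the 44 tested, 3 rose (SLC2A12, CS and IDH1) and 3 fell (DLST, OGDH and PKM), at an adjusted p under 0.05 in limma. These are 13.6% of the members, beside 13.0% of all genes (6.97% higher and 5.99% lower), a share near the background. Relative to the spikes 0 would pass as higher and 35 as lower, beside 105 and 9137 of all genes. On that scale 43 of the 44 would lie below 0. The median log2 fold change was 0.049 over the members and 0.021 over all genes. For 32 of the 44 (72.7%) the absolute log2 fold change was under 0.25, beside 63.8% of all genes. All DHT arrays exceeded all controls for 11 members, where 16.9% of all genes did so, and all were lower for 8, where 14.1% did. Together these are 43.2% of the members beside 31.0% of all genes. The members are bright, with a median signal of 649 against 116 over all genes. The plot of all 44 responses groups them by pathway step.

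**Figure D1:**
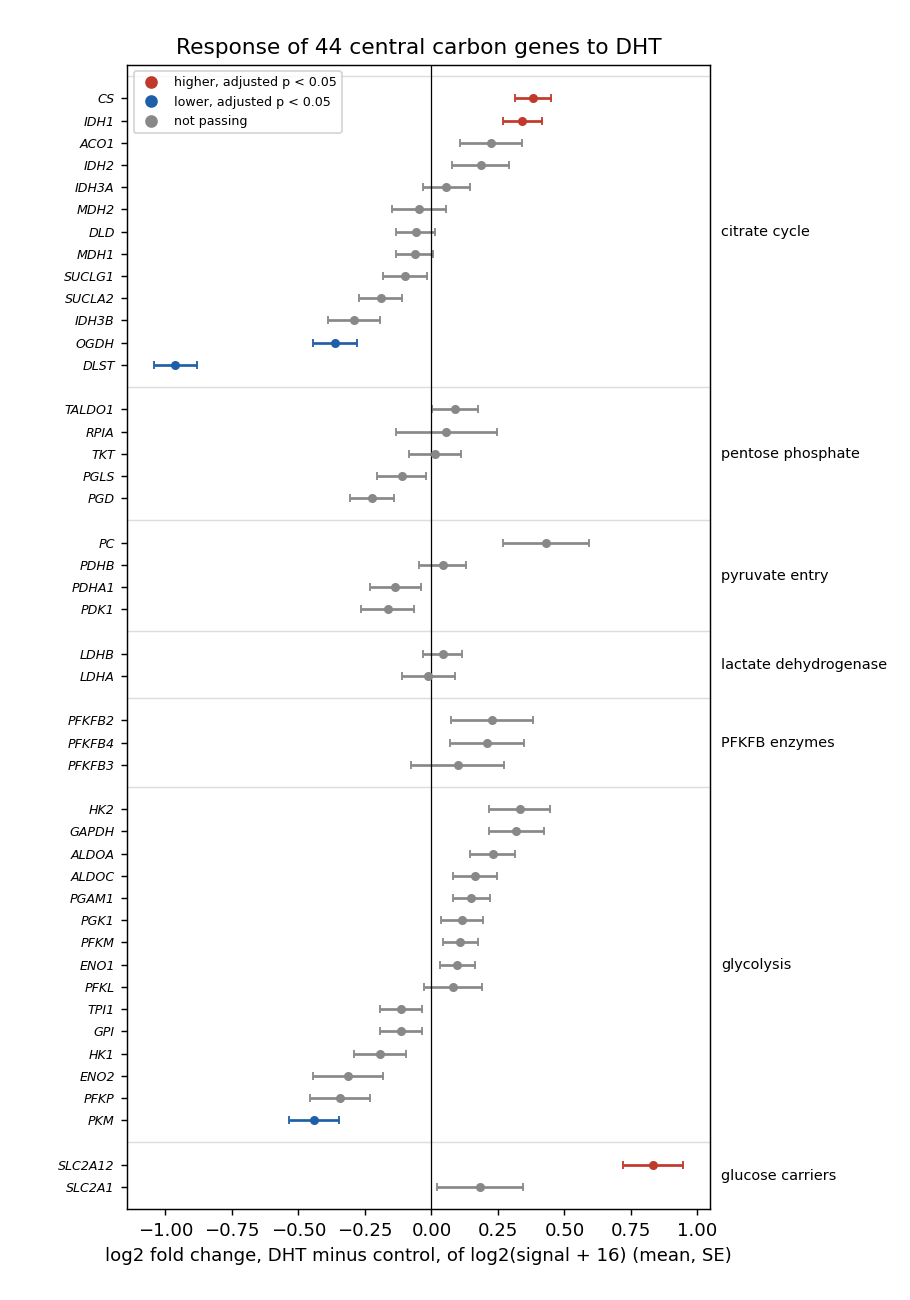
Log2 fold change of each tested gene (DHT minus control on log2(signal + 16), 3 arrays per group), with limma's standard error as bars, grouped by pathway step. SLC2A12 stands apart at 0.83 and DLST at -0.96, and the other genes lie between -0.44 and 0.43.

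The stretch before the start site is shown for 4 of the 6 genes that passed, so that those that rose can be read beside those that fell. Each sequence is the 250 bases upstream of the start in RefSeq's GRCh38.p14, in the gene's direction, with GC boxes (GGGCGG or its reverse complement CCGCCC) in capitals. RefSeq's table matched 44 of the 48 members, with 75 starts, and held no entry for OGDH. SLC2A12 lies at chr6:134052625-134052874 on the minus strand, CS at chr12:56300331-56300580 on the minus strand, DLST at chr14:74881666-74881915 on the plus strand and PKM at chr15:72231191-72231440 on the minus strand.
SLC2A12: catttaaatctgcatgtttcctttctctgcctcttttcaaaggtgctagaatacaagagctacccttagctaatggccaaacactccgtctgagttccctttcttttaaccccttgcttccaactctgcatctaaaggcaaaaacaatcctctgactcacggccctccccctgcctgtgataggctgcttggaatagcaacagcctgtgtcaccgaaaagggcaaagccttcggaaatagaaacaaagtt
CS: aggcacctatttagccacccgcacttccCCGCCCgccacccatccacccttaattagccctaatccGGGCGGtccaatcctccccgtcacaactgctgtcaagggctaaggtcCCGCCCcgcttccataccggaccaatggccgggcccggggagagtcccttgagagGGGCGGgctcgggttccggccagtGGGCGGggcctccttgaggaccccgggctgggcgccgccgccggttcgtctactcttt
DLST: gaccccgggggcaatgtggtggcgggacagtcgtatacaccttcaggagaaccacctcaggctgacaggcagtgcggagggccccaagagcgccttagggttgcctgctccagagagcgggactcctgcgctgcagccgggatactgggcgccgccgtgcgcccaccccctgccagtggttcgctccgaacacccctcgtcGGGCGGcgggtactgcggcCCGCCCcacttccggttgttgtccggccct
PKM: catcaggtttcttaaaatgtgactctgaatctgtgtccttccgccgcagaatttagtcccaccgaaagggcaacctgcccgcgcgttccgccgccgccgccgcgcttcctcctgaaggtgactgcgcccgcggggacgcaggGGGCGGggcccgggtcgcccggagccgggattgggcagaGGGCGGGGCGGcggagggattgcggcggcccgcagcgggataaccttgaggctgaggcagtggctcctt
The stretch of CS held 5 GC boxes, DLST 2, PKM 3 and SLC2A12 0, and the IDH1 stretches, not shown, held 1 and 3. No link between these counts and the responses was tested. The G and C content was 67.6% for CS, 69.6% for DLST, 68.4% for PKM and 46.0% for SLC2A12, with a median of 58.0% over all 35116 stretches. A GC box on either strand was in 61.3% of the member stretches and 42.6% of all. The core letters of the hypoxia response element, ACGTG or GCGTG on either strand, were in 53.3% of the member stretches and 43.2% of all, and CACGTG, which contains the first, in 9.33% and 6.34%. The IDH1 stretches held 1 ACGTG and 3 GCGTG, and the 4 shown held neither. The androgen receptor half-site AGAACA, on either strand, was in 5.33% of the member stretches and 12.4% of all, and in none of the 4 shown.

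The highest response of a member was that of a glucose carrier. SLC2A12 encodes GLUT12, a carrier of the cell surface, and its stretch above is the one without a GC box. Its signal was 123, 106 and 134 in controls and 212, 225 and 245 with DHT. Every DHT array was thus above every control array. The rise was 1.88-fold in mean signal, or 0.83 ± 0.11 (SE; limma adjusted p = 0.000737) on the log2 scale. A dimmer SLC2A12 probe set also had its groups apart but gave 0.28 (limma adjusted p = 0.224 over probe sets). SLC2A1 encodes GLUT1, the widespread basal glucose carrier. Its signal was 165, 251 and 162 in controls and 192, 206 and 257 with DHT, and the groups overlapped, with 0.18 ± 0.16 (SE; limma adjusted p = 0.523) and a 95% interval of -0.17 to 0.53. Leaving out single arrays moved it from 0.068 without DHT replicate 3 to 0.37 without control replicate 2, and it was 0.095 and 0.079 without control replicates 1 and 3. The log2 difference between both carriers on each array was higher with DHT by 0.65, with the groups apart (two-sided exact permutation p = 0.1; adjusted p = 0.28 over 14 pairs), or by 0.38 without control replicate 2 and 0.37 when probe sets were averaged. The 3 SLC2A3 probe sets had group means of 3.09 to 10.5, below the limit of 17.3.

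The 15 enzymes of glycolysis proper had a median log2 fold change of 0.098, with 9 values above 0 and 6 below. Over all genes 7581 of 14269 values were above 0. Of the 15 enzymes 1 passed, as lower (6.67%, beside 13.0% of all genes in either direction and 5.99% lower). That gene was PKM, the muscle-type pyruvate kinase of the last ATP-yielding step. Its signal was 2189.9, 2152 and 2329.9 in controls and 1812, 1707 and 1406 with DHT. All DHT arrays were lower, and DHT replicate 3 was the lowest. The log2 fold change was -0.44 ± 0.094 (SE; limma adjusted p = 0.0101), and the dim second PKM probe set had -0.40 (limma adjusted p = 0.212 over probe sets). HK2 encodes the hexokinase of muscle, fat and many tumours, and had the highest value of these enzymes. Its signal was 150.4, 132 and 116 in controls and 165, 172 and 174 with DHT. The groups did not overlap, but 0.33 ± 0.11 (SE; limma adjusted p = 0.0834) did not pass.

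GAPDH, which makes the NADH of the pathway, was the brightest member. Its signal was 6184, 7999.7 and 6212 in controls and 8255, 8122 and 8924 with DHT, and control replicate 2 was close to the DHT arrays. The log2 fold change was 0.32 ± 0.10 (SE; limma adjusted p = 0.0658), and without control replicate 2 it was 0.44 and passed (limma adjusted p = 0.00389). It was 0.21 without control replicate 3 (limma adjusted p = 0.352) and 0.065 with quantile normalisation (limma adjusted p = 0.398). Its 3 probe sets all end in _x_at, a mark of probes that can bind other transcripts, and gave 0.32, 0.30 and 0.26. Only in the first, which was read for the gene, were the groups apart. The array's own GAPDH control probe sets, left out of the fit, differed between the groups by 0.31 at the 3' end, 0.17 in the middle and 0.077 at the 5' end, on log2(signal + 16). At the 3' end the groups did not overlap, with signals of 5519 to 6814 in controls and 7308 to 7667 with DHT. At the 5' end they overlapped, with 6293 to 7289.7 and 6606 to 7342.

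**Figure D2:**
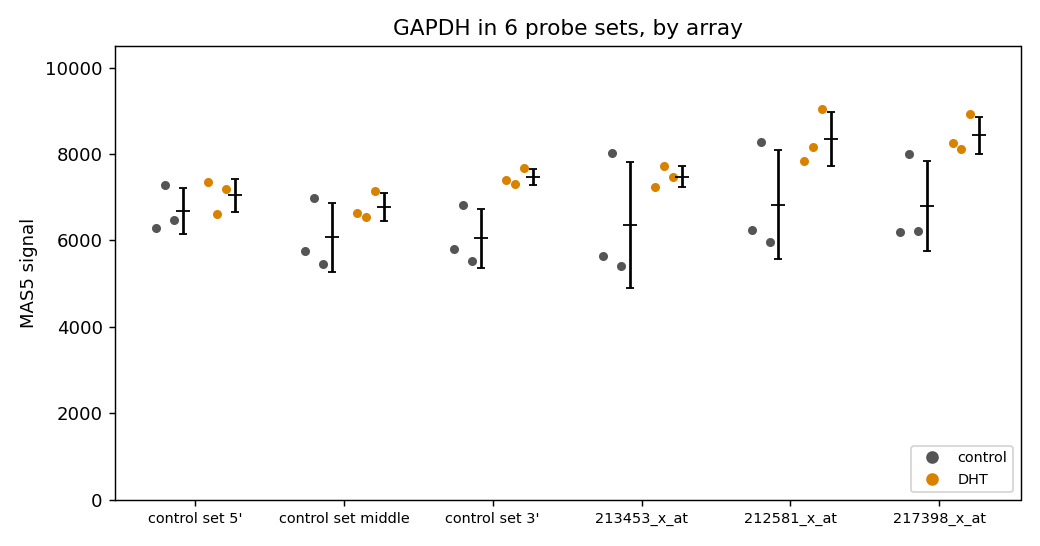
MAS5 signal of GAPDH in the control probe sets for the 5' end, middle and 3' end of the transcript and in the 3 gene probe sets. Points are arrays and bars the mean and SD of 3 arrays per group. The groups overlap at the 5' end and in the middle, and not at the 3' end.

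The other glycolytic enzymes that did not pass had values between -0.34 and 0.23. Phosphofructokinase, the committing step, had -0.34 for the platelet form PFKP, 0.081 for the liver form PFKL and 0.11 for the muscle form PFKM. The signal of PFKP was 350.9, 371 and 296 in controls and 295, 266 and 232 with DHT, without overlap (limma adjusted p = 0.0673). It passed without control replicate 3, at -0.43 (limma adjusted p = 0.0459). ENO2, the neuronal enolase, was 222, 214 and 214 in controls and 202, 184 and 135 with DHT, again without overlap, with -0.31 ± 0.13 (SE; limma adjusted p = 0.157). ENO1, the widespread enolase, had 0.098 ± 0.067 (SE). The aldolases ALDOA and ALDOC had 0.23 and 0.16, the kinase PGK1 0.12 and the mutase PGAM1 0.15. For ALDOA, ALDOC, PGAM1, ENO1 and PFKM all DHT arrays were above all controls. In the probe sets read, hexokinase HK1, the isomerases GPI and TPI1 and PGK1 overlapped between the groups, with -0.19 for HK1, -0.11 for GPI and -0.11 for TPI1. The next brightest PGK1 probe set had -0.23 with all DHT arrays lower (limma adjusted p = 0.0695 over probe sets). The dimmer tested PGK1 probe sets had -0.13, 0.085 and 0.36.

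The PFKFB enzymes make and degrade fructose 2,6-bisphosphate, which activates phosphofructokinase. None of the 3 tested passed (beside 13.0% of all genes), and they were dim, with a median signal of 58.5. PFKFB2, the heart form, was 53.4, 57.4 and 47.0 in controls and 65.6, 69.6 and 57.9 with DHT, a narrow gap between the groups. Its log2 fold change was 0.23 ± 0.15 (SE; limma adjusted p = 0.386), and its 3 dimmer probe sets had 0.42, 0.56 and 0.63, none of which passed. PFKFB3, the dimmest of the tested members, had 0.098 ± 0.17 (SE), and PFKFB4 had 0.21 ± 0.14 (SE).

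Lactate dehydrogenase interconverts pyruvate and lactate, and both of its tested subunits were bright and near 0. LDHA, the subunit typical of glycolytic tissue, was 3407, 2899 and 2828 in controls and 3423, 2921 and 2726 with DHT. The difference was -0.011 ± 0.10 (SE; limma adjusted p = 0.961), with a 95% interval of -0.23 to 0.21. LDHB, the subunit typical of oxidative tissue, was 3437, 3831 and 3453 in controls and 3789, 3562 and 3680.2 with DHT, with 0.042 ± 0.074 (SE) and an interval of -0.12 to 0.20. For both genes the groups overlapped, unlike those of the 6 genes in the plot of signals by array.

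**Figure D3:**
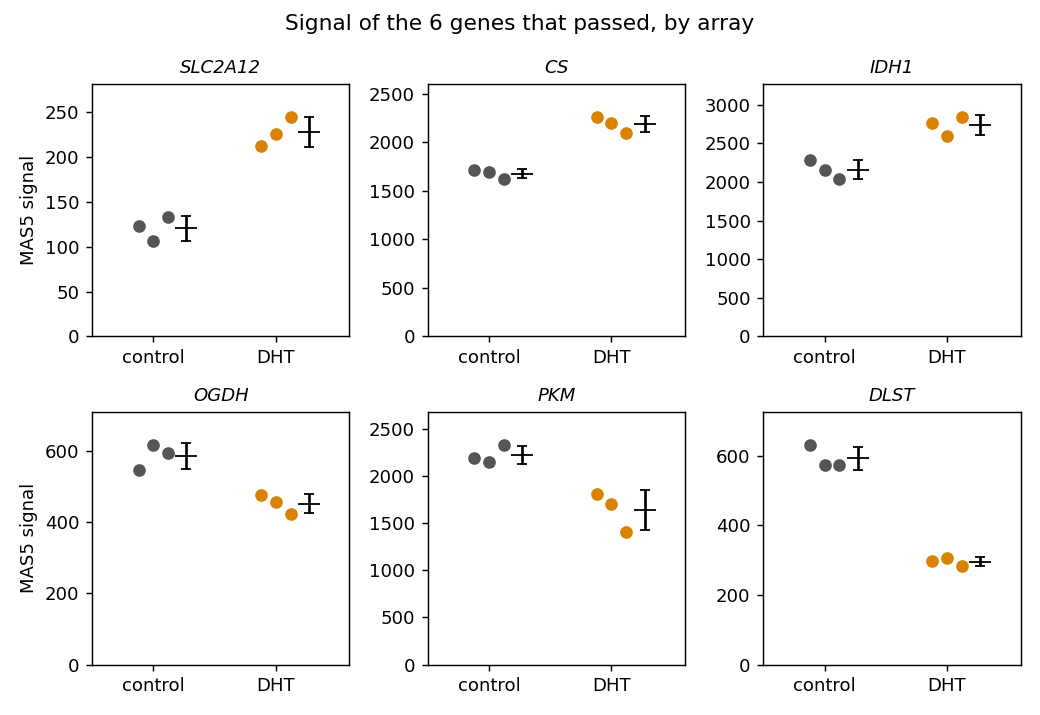
MAS5 signal of the 6 genes that passed, with each point an array and bars the mean and SD of 3 arrays per group. In every panel the DHT arrays lie entirely above (SLC2A12, CS, IDH1) or below (OGDH, PKM, DLST) the control arrays.

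None of the 5 genes of the pentose phosphate pathway passed (beside 13.0% of all genes), and their median was 0.013. At an unadjusted p under 0.05 in limma 1 of them was lower, beside 1738 of all 14269 genes. That gene was PGD, which makes the second NADPH of the oxidative branch. Its signal was 802, 862 and 811 in controls and 773, 705 and 641 with DHT, all DHT arrays being lower, with -0.22 ± 0.083 (SE; limma adjusted p = 0.109). TALDO1, the transaldolase of the non-oxidative branch, had the highest value, 0.089 ± 0.086 (SE), and transketolase TKT had 0.013 ± 0.099 (SE). A second bright TKT probe set, an _x_at, had -0.21 and a dim one 0.21. Both had the groups apart (limma adjusted p = 0.128 and 0.385 over probe sets). RPIA, the isomerase that yields ribose 5-phosphate, had 0.056 ± 0.19 (SE), the widest error of the 5. PGLS, which hydrolyses the lactone between the oxidative steps, had -0.11 in its brightest probe set and -0.62 (limma adjusted p = 0.00793 over probe sets) in the next. Signals of that second probe set were 413 ± 27.6 in controls and 265 ± 49.1 with DHT (SD, n = 3 each).

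Pyruvate enters mitochondrial metabolism through pyruvate dehydrogenase, which the kinase PDK1 inhibits, or through pyruvate carboxylase (PC). Of these 4 genes none passed (beside 13.0% of all genes), and in the probe sets read all overlapped between the groups. PC was 70.1, 95.4 and 79.8 in controls and 144, 112 and 93.8 with DHT, and the lowest DHT array lay within the control range. Its 0.43 ± 0.16 (SE; limma adjusted p = 0.113) was followed among the members by CS at 0.38, and without DHT replicate 1 it was 0.29, below CS at 0.36. PDK1 had -0.16 ± 0.099 (SE), and the E1 subunits PDHA1 and PDHB had -0.14 and 0.042. A dimmer PDHB probe set went the other way, at -0.27 with all DHT arrays lower (limma adjusted p = 0.0563 over probe sets).

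Among the genes listed for the citrate cycle, those that passed moved in opposite directions. Of 13 tested, 2 rose and 2 fell (30.8%, beside 13.0% of all genes), with a median of -0.058. The 13 include the cytosolic forms IDH1, ACO1 and MDH1, and of the 2 that rose only CS is an enzyme of the mitochondrial cycle. CS, citrate synthase, joins acetyl-CoA and oxaloacetate in the first step, and its stretch above holds the most GC boxes of the 4. Its signal was 1714, 1693 and 1622 in controls and 2265, 2202 and 2099.7 with DHT. The DHT arrays were all higher, a 1.31-fold rise or 0.38 ± 0.068 (SE; limma adjusted p = 0.00423) on the log2 scale. IDH1, the cytosolic isocitrate dehydrogenase that makes NADPH, was 2279.6, 2159 and 2033 in controls and 2770.2, 2594 and 2847 with DHT, also without overlap, with 0.34 ± 0.074 (SE; limma adjusted p = 0.0114). Its second bright probe set gave 0.31 (limma adjusted p = 0.0120 over probe sets). Relative to the spikes every log2 fold change would be lower by 0.55, which would put CS at -0.17 and IDH1 at -0.21, neither passing. IDH1 did not pass without DHT replicate 3 (limma adjusted p = 0.0523), nor when its 3 probe sets were averaged (0.25; limma adjusted p = 0.105).

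Both falls were in the 2-oxoglutarate dehydrogenase complex, which turns 2-oxoglutarate into succinyl-CoA. It has an E1 part (OGDH), an E2 part (DLST) and an E3 part (DLD) that pyruvate dehydrogenase shares. DLST was 631, 572 and 573 in controls and 299, 306 and 282 with DHT. Every DHT array was far below every control, and the log2 fold change was -0.96 ± 0.081 (SE; limma adjusted p = 3.37e-05). This was rank 63 from the lowest of 14269 genes. DLST was read from the only probe set that names it alone, so no second one checks it.

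OGDH was 545, 616 and 594 in controls and 475, 456 and 423 with DHT, without overlap, at -0.36 ± 0.082 (SE; limma adjusted p = 0.0142). DLD was 1625, 1619.7 and 1705 in controls and 1579, 1693 and 1485 with DHT, overlapping, with -0.058 ± 0.073 (SE) and a 95% interval of -0.22 to 0.10. The responses of DLST and DLD differed by -0.90 and those of OGDH and DLD by -0.30, with the groups apart in both (two-sided exact permutation p = 0.1 each; pairs chosen after the values were seen). The next brightest OGDH probe set had a mean of 347 in controls and 346 with DHT, at -0.0048 ± 0.084 (SE). The dimmest had 42.1 and 23.6, at -0.61 ± 0.27 (SE), and neither passed. OGDH did not pass without control replicate 2, control replicate 3 or DHT replicate 3 (limma adjusted p = 0.0509 to 0.0566), nor when its probe sets were averaged (-0.33; limma adjusted p = 0.0784).

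The NAD-dependent isocitrate dehydrogenase, one step earlier, had -0.29 ± 0.098 (SE; limma adjusted p = 0.0778) for IDH3B and 0.056 ± 0.088 (SE) for IDH3A. IDH3B was 572, 488 and 484 in controls and 405, 467 and 384 with DHT, without overlap. Its brighter _x_at probe set, which was not read for the gene, had -0.36 (limma adjusted p = 0.0151 over probe sets). Succinyl-CoA synthetase, one step later, had -0.19 for SUCLA2, whose DHT arrays were all lower, and -0.098 for SUCLG1. Malate dehydrogenases MDH1 (cytosolic) and MDH2 (mitochondrial) had -0.063 and -0.046. IDH2, the mitochondrial NADPH-forming enzyme, had 0.19, and ACO1, the cytosolic aconitase, 0.22, and neither passed.

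Paired forms of an enzyme were compared by their log2 difference on each array, for the 14 of 16 listed pairs with both genes tested. In 5 pairs the groups did not overlap, each at a two-sided exact permutation p = 0.1 and an adjusted p = 0.28. Among all single genes 31.0% did not overlap, and the share over all gene pairs was not computed. With 3 against 3 arrays no p can be lower, so the test could not call a pair. Beside the pair of glucose carriers, the pairs without overlap were HK2 against HK1 (0.52), PDHB against PDHA1 (0.18), ENO2 against ENO1 (-0.41) and IDH3B against IDH3A (-0.35). Without control replicate 2 the PDHB difference was 0.11, and without DHT replicate 3 the ENO2 difference was -0.26. PFKP against PFKL differed by -0.42 with overlap (two-sided exact permutation p = 0.2; adjusted p = 0.4 over the pairs). When probe sets were averaged, the PFKP difference was -0.047 and the PDHB difference turned to -0.097.

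The 44 tested members had 91 probe sets past the limit, of which 5 rose and 5 fell (11.0%, beside 10.3% of all 32768 probe sets). Of 26 members with more than 1 such probe set, 13 had all of them on 1 side of 0, and none had probe sets passing in both directions. HK2, GAPDH, TPI1, PKM, PFKFB2, IDH1 and IDH3B were among those on 1 side. The like share over all genes was not computed. ENO1 had 0.098 and -0.065 in its bright probe sets and 0.53 (limma adjusted p = 0.0437 over probe sets) in a dim one. ALDOA had 0.23 and 0.22 in its bright ones and -0.38 (limma adjusted p = 0.0554 over probe sets) in a dimmer one. ENO1, PGK1, GAPDH, ALDOA, LDHA and LDHB have processed pseudogenes or close relatives that probes can share.

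**Figure D4:**
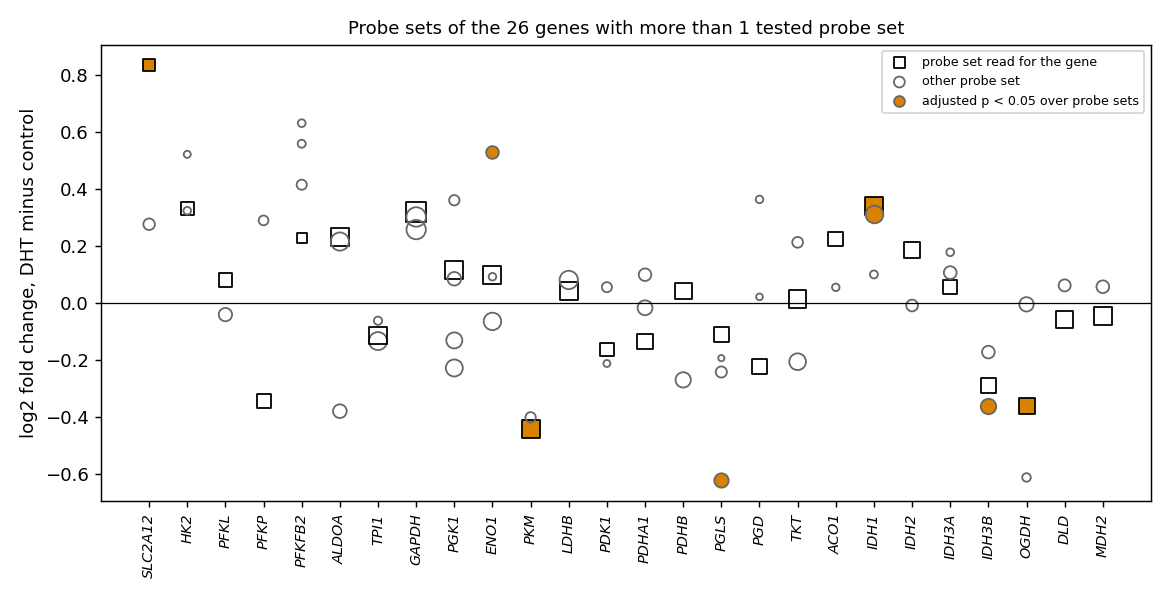
Log2 fold change of every tested probe set of the 26 members with more than 1, where squares are the probe sets read for the gene, larger symbols are brighter, and filled symbols passed over all probe sets. In 13 of the 26 members the probe sets lie on both sides of 0.

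Further enzymes and carriers of these pathways were read in the same fit, from lists written with earlier results known. Around glycolysis 19 of 29 genes were tested, of which 2 rose and 2 fell (21.1%, beside 13.0% of all genes), with a median of 0.0079. BSG, the chaperone that brings lactate carriers to the membrane, fell from 1652 ± 168 to 1160.3 ± 72.2 (SD, n = 3 each), or by 0.50 (limma adjusted p = 0.00335) on the log2 scale. PGM2, a phosphopentomutase, rose by 0.50 (limma adjusted p = 0.00732), and ADPGK, an ADP-dependent glucokinase, by 0.31 (limma adjusted p = 0.0278). LDHD, a mitochondrial D-lactate dehydrogenase, fell, at -0.70 (limma adjusted p = 0.0245). ADPGK did not pass when any single array except DHT replicate 3 was left out, nor LDHD when any except control replicate 1 or DHT replicate 3 was (limma adjusted p = 0.0579 to 0.0956).

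Around the pentose phosphate pathway 5 of 8 genes were tested, of which 2 rose and 1 fell (3 of 5, beside 13.0% of all genes), with a median of 0.23. PRPS1 and PRPS2 turn ribose 5-phosphate into the precursor of nucleotides, and both rose. PRPS1 was 776, 835 and 721 in controls and 1053, 1003 and 1038 with DHT, at 0.40 (limma adjusted p = 0.00552), and PRPS2 had 0.37 (limma adjusted p = 0.0149). H6PD, the oxidative enzyme of the endoplasmic reticulum, fell, at -0.39 (limma adjusted p = 0.0142), and the epimerase RPE had 0.23 (limma adjusted p = 0.341). PRPS2 did not pass without DHT replicate 2 or DHT replicate 3 (limma adjusted p = 0.0540 to 0.0550), nor H6PD without control replicate 2, control replicate 3 or DHT replicate 2 (limma adjusted p = 0.0511 to 0.0577).

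Around the citrate cycle 23 of 28 genes were tested, of which 3 rose and 5 fell (34.8%, beside 13.0%), with a median of 0.017. MPC2, a subunit of the carrier that brings pyruvate into mitochondria, was 2284, 2778 and 2311 in controls and 4342, 3924 and 3770.4 with DHT. All DHT arrays were higher, at 0.71 ± 0.092 (SE; limma adjusted p = 0.000612), while its partner MPC1 had -0.18 (limma adjusted p = 0.295). SLC25A1, which exports citrate from mitochondria, fell from 681 ± 52.6 to 434 ± 42.7 (SD, n = 3 each), at -0.63 (limma adjusted p = 0.00116). GLUD1, which makes 2-oxoglutarate from glutamate, rose, at 0.43 (limma adjusted p = 0.00486). PDP1, the phosphatase that activates pyruvate dehydrogenase, fell, at -0.75 (limma adjusted p = 0.00557), but did not pass when its 2 probe sets were averaged (-0.33; limma adjusted p = 0.0616). The other calls, named after their values were seen, were PDK3 (0.44), IDH3G (-0.28), SDHC (-0.39) and ME1 (-0.43). Of these PDK3, IDH3G and SDHC each failed to pass when some single arrays were left out (limma adjusted p = 0.0503 to 0.153). When probe sets were averaged PDK3 had 0.13 (limma adjusted p = 0.483), SDHC -0.17 (limma adjusted p = 0.142) and IDH3G -0.44 (limma adjusted p = 0.223). IDH3G also did not pass with the replicate block (limma adjusted p = 0.0615).

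Of 13 tested regulators of these pathways 1 passed, as higher (7.69%, beside 13.0% of all genes in either direction and 6.97% higher). It was MYC, a transcription factor that induces many glycolytic genes, with a signal of 1150.2, 1217 and 1116 in controls and 1514, 2225 and 1649.8 with DHT and 0.60 ± 0.12 (SE; limma adjusted p = 0.00721). HIF1A, the oxygen-regulated factor that induces glycolysis, had -0.22 (limma adjusted p = 0.0763) and passed without control replicate 2, at -0.29 (limma adjusted p = 0.0357). CAMKK2, a kinase upstream of AMPK, had 0.33 (limma adjusted p = 0.136) and passed without DHT replicate 1, at 0.49 (limma adjusted p = 0.0213), but was 0.21 without DHT replicate 3. ESRRA, an orphan receptor of mitochondrial genes, had -0.25 (limma adjusted p = 0.153). Without limma's intensity trend, 3 of the 16 genes of these lists that passed did so again (MPC2, SLC25A1 and PDP1), while MYC, PRPS1, PRPS2, BSG, PGM2, GLUD1, ME1 and the others had limma adjusted p of 0.0615 to 0.181. With equal array medians PRPS2 had 0.33 (limma adjusted p = 0.0511), and ADPGK, PDK3 and IDH3G also did not pass. Relative to the spikes, the genes of these lists that rose by under 0.55 (PGM2, ADPGK, PRPS1, PRPS2, GLUD1 and PDK3) would lie below 0. The strip plot sets these lists beside the members.

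**Figure D5:**
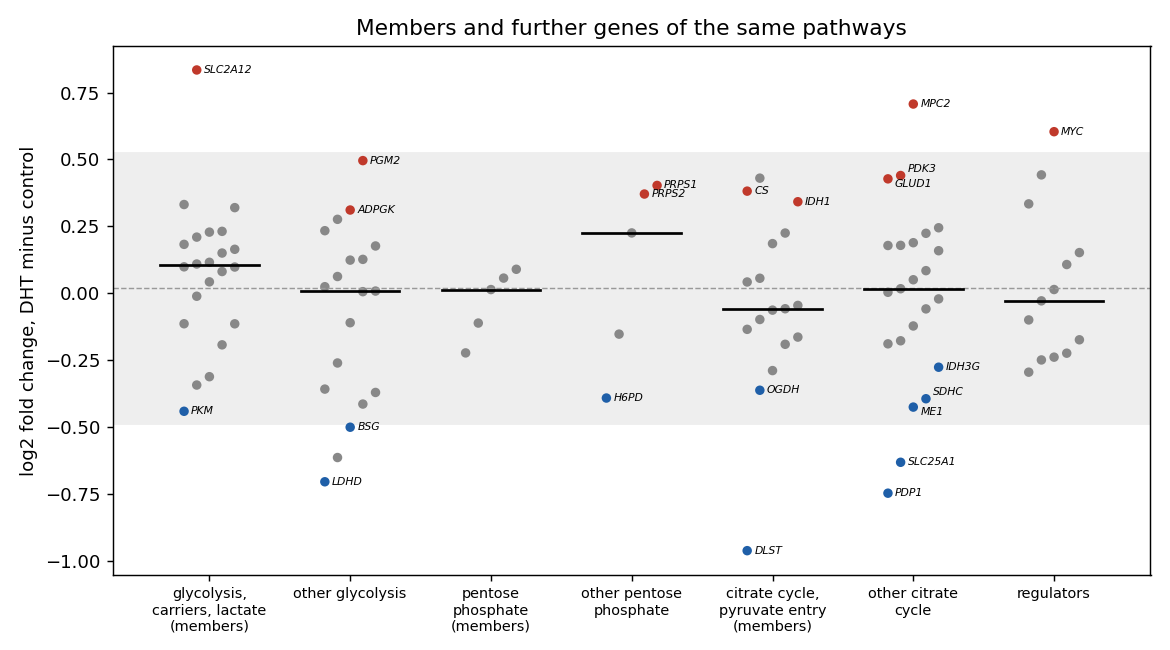
Log2 fold changes of the members in 3 wide branches and of further genes of the same pathways, with black bars the list medians, red and blue points genes that rose or fell, and the grey band the 5th to 95th percentile of all 14269 genes (-0.49 to 0.52). Most points lie within the band, and the medians of the branches are 0.10 for glycolysis with its carriers, 0.013 for the pentose phosphate pathway and -0.058 for the citrate cycle with pyruvate entry.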

How the data were processed

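Total RNA of 6 LNCaP cultures was read on 1-colour Affymetrix arrays. The authors deposited signal intensity on a linear scale, computed with MAS5 according to the submitters' processing notes (version and genome build not given in the sources used here), and scaled to the same trimmed mean (100.03, without the top and bottom 2%). Of 54675 probe sets, 62 controls were left out, 41097 name 1 gene, 1801 several and 11777 none. The genes of 41043 matched a GRCh38.p14 table, and 0 symbols changed. The lowest 40% by mean log2(signal + 16) were removed (signal 17.3), which left 32768. The pseudocount of 16 understates fold changes of dim genes.

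The probe sets were fitted with limma 3.58.1 (lmFit, eBayes with an intensity trend; R 4.3.3) on log2(signal + 16), DHT minus control. Each gene took the values of its brightest probe set by mean signal (_x_at only where no other passed), and p-values were Benjamini-Hochberg adjusted over 14269 genes at 0.05. The fit was tested on simulated data. Exact permutation tests used scipy 1.17.1. The rule for named genes took members that passed, the highest and lowest of each branch, the brightest and dimmest, 4 genes per further list with the smallest adjusted p, and the 3 highest and lowest pairs, and other members were named to complete a step. Members and lists were chosen with earlier results of these data known. Alternatives were other pseudocounts, limits, scalings, probe set choices and limma settings, a replicate block, and leaving out each array. Same-numbered arrays did not deviate together (correlations -0.0064, -0.041 and 0.016), so their numbers were not taken to pair them.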

Additional observations from a re-analysis of the deposited data

Results flagged for a closer look

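Control probe sets of the array, outside the gene fit, lay apart between the groups. The mean log2 signal of the hybridisation spikes was higher with DHT by 0.55. The 3' to 5' ratio was higher by 0.157 for GAPDH and by 0.409 for ACTB, and the signal of the 3' GAPDH control probe set was higher by 1414. In each case all 3 DHT arrays were above all 3 control arrays (two-sided exact permutation p = 0.1, the smallest possible). Their part in the responses of the members was not tested.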

How the results depend on the processing

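SLC2A12 and DLST passed under every alternative run except, for SLC2A12, scaling to the spikes (0.28; limma adjusted p = 0.143). Without limma's intensity trend 1 member passed as higher and 1 as lower, against 388 and 293 of all genes, and CS, IDH1, OGDH and PKM had adjusted p of 0.0742, 0.109, 0.102 and 0.0983. With spike scaling 0 members passed as higher and 35 as lower, against 105 and 9137 of all genes, with medians of -0.45 for glycolysis with its carriers, -0.54 for pentose phosphate, -0.61 for the citrate cycle with pyruvate entry and -0.53 for all genes. With equal array medians 649 genes were higher and 804 lower, and the median of all genes was -0.019. Leaving out single arrays gave 2 to 4 members higher and 2 to 3 lower, 626 to 785 genes higher and 515 to 664 lower, and medians of 0.087 to 0.14 for glycolysis, -0.13 to 0.052 for pentose phosphate, -0.080 to -0.028 for the citrate cycle and 0.014 to 0.030 for all genes. With a replicate block 3 members passed as higher and 4 as lower, PFKP being added (limma adjusted p = 0.0379), and the 6 kept their calls. Of the further genes that passed, IDH3G did not pass with the block, and the others did. Uncalled values changed sign. LDHA had 0.072, 0.0099 and 0.059 without control replicate 1, DHT replicate 2 and DHT replicate 3 (range -0.10 to 0.072 over the left-out arrays). PFKFB3 had -0.048 to 0.20 over them, RPE -0.078 to 0.36, LDHB -0.057 with quantile normalisation, and PGD 0.054 when probe sets were averaged. The cause of these changes was not tested. The number of arrays limits the precision, and the dimmest member, PFKFB3, had a 95% interval of -0.28 to 0.48.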
